A study of Mus musculus with 11 samples.

Results

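The genes that cut, carry and load peptides for MHC class I were followed in gingival epithelium, from mice of the langerin-DTR strain. All rows of the deposited table whose gene name is 1 of 10 fixed names were taken, namely the heavy chains H2-K1 and H2-D1, the light chain B2m, the transporter subunits Tap1 and Tap2, the peptide editor Tapbp, the immunoproteasome subunits Psmb8, Psmb9 and Psmb10, and the transactivator Nlrc5. All 10 were found among the 19170 genes with values, and no member was lost to a filter on low values.

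All 11 mice analysed here carried the langerin-DTR transgene, in which langerin expression drives the toxin receptor and diphtheria toxin (DT) thereby removes Langerhans cells and any other cell that makes langerin. Injections were given at 17, 24 and 31 days of age, of PBS to 5 mice and of DT to 6 mice, and all 11 were sampled at an age of 8 weeks. The study's methods state that the mice were male. The comparison asks what the adult epithelium expresses after an early loss of Langerhans cells, and mice without the transgene, which would show effects of DT itself, were not analysed here.

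MHC class I molecules show peptides from inside the cell to CD8+ T cells and are present on nearly all nucleated cells, keratinocytes among them. Peptides are cut by the proteasome, carried into the endoplasmic reticulum by the TAP transporter and fitted into the groove of the heavy chain, which is stable only with beta-2-microglobulin bound. Interferons raise the whole chain of genes: the immunoproteasome subunits then replace the constitutive catalytic subunits, and NLRC5 acts at the promoters of the heavy chains and of B2m. Tap1, Tap2, Psmb8 and Psmb9 are neighbours in the MHC region on chromosome 17, as are H2-K1, H2-D1 and Tapbp in the same region, whereas B2m is on chromosome 2 and Psmb10 and Nlrc5 are on chromosome 8.

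The promoters of the class I chain carry letters that are known as binding motifs of the factors above, and stretches of 3 of them are printed here because these 3 genes had the closest relation among the members. They come from RefSeq promoter windows on GRCm38.p6 that run from 250 bases before to 50 bases after the start of the gene, and the motifs are in capitals. Windows were found for 8 of the 10 members. Tap2 and Nlrc5 had no window.
B2m, chr2:122147527-122147626, plus strand: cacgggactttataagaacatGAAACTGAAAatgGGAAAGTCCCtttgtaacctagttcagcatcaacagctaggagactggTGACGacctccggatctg
H2-K1, chr17:34000378-34000477, minus strand: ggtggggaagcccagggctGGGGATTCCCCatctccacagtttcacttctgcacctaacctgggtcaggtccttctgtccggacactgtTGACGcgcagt
H2-D1, chr17:35262913-35262942, plus strand: gcccagggctGGGGATTCCCCatctcctca
In the B2m stretch the capitals mark, in order, an IRF motif (GAAANNGAAA), a kappa-B motif and a CRE half-site (TGACG), and in the H2-K1 stretch a pair of kappa-B motifs that overlap and a CRE half-site. The H2-D1 stretch holds the same overlapping pair, and 29 of its 30 bases are identical to those around the pair in H2-K1. Both strands were searched. The kappa-B consensus was found in 3 of the 8 members with a window (B2m, H2-K1 and H2-D1) and in 8.46% of all 32851 windows. The IRF pattern GAAANNGAAA was found in B2m alone among the members and in 3.44% of all windows, and a GAS motif (TTCNNNGAA) in Psmb8 alone and in 8.30% of all windows. Variants of these patterns were not searched, so a missing match does not show that a promoter lacks such a site. The H2-K1 stretch holds, in lower case, gtttcacttc, whose other strand is close to the IRF pattern without matching it. The CRE half-site was found in 5 of the 8 members and in 20.8% of all windows, and CCAAT in 6 of the 8 and in 37.4% of all windows. The windows of Tap1 and Psmb9, which start from opposite strands, overlap, so that their CRE half-site is 1 site counted for both, as is their CCAAT. These matches are descriptions of the letters, not of binding.

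The 11 libraries held between 17509328 and 24325513 reads counted on genes, recovered from the step that 1 read makes in each column. Values below are normalised read counts, that is, reads divided by the size factor of the mouse. The epithelial markers were high in every mouse, with a summed level of 10 keratinocyte genes between 2605423 and 2868941. Markers of other cells were present at levels lower than these, which differed between lists. The 5 pan-leukocyte genes summed to between 217 and 529 in PBS mice and between 135 and 318 in DT mice. The 6 fibroblast genes summed to 1252 to 1450 in PBS mice and 1109 to 1594 in DT mice. Most of this was Dcn, with means of 1174 in PBS and 1259 in DT mice. Pdgfra had means of 3.37 and 4.89, and Lum of 4.31 and 2.74. The 4 neutrophil genes with values summed to 688 to 3383 and 673 to 3716, and 9 Langerhans cell genes to 2136 to 4990 and 1501 to 2887. S100a8 and S100a9 made up most of the neutrophil sum, while Csf3r had means of 5.02 in PBS and 3.60 in DT mice. These sums therefore do not rank the amounts of RNA from each cell type. Cd207, which encodes langerin, ranged from 10.0 to 43.0 in PBS mice and from 15.8 to 21.6 in DT mice. It did not differ past the threshold (log2 difference -0.19, adjusted p = 0.85, limma). Without PBS 3 and PBS 5 its difference was 0.33 (adjusted p = 0.47, limma). All 9 Langerhans cell markers, Cd207 among them, had negative values with a median of -0.44. Of these 0 were called and 4 had an unadjusted p below 0.05 (limma). Their list is not separate from others used here: Cd74, H2-Aa and H2-Ab1 are also class II genes, and Ptprc is also a pan-leukocyte gene. Cd74 had means of 1361 in PBS and 919 in DT mice, where Cd207 had 23.9 and 18.4. In the study's flow cytometry, Langerhans cells were back at normal frequencies at the age of 8 weeks. PBS 3 and PBS 5 stood apart from the other PBS mice on the first principal component of the most variable genes, which held 36.0% of their variance. They lay at 17.2 and 20.9, where PBS 1, PBS 2 and PBS 4 lay between -12.95 and -11.92. Of 13 immediate early genes, which respond quickly to handling and stress of a tissue, 10 were called higher in DT mice, and their part in the values below was not tested. The effect of leaving out PBS 3 and PBS 5 was followed for the genes, ratios and pairs of genes named in the text. Where it ended or made a call, or turned a direction, the value is given there or among the alternatives at the end.

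The members covered a wide range of levels. Per kilobase of exon, averaged over the 11 mice, H2-D1 had the highest level, at 2059 ± 338 normalised read counts per kilobase (SD, n = 11 mice). B2m followed at 1482 ± 737, H2-K1 at 898 ± 240 and Tapbp at 483 ± 37.1 per kilobase. The transporter subunits were lower, with 104 ± 13.3 for Tap1 and 80.7 ± 11.4 for Tap2. Psmb10 stood at 60.5 ± 14.1 per kilobase, and Psmb9, Nlrc5 and Psmb8, at 17.6 ± 5.98, 16.7 ± 6.65 and 14.8 ± 6.84, lay within the spread of each other. B2m also overlapped its neighbours in this order, since its SD was large.

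No member of the class I chain was called between DT and PBS mice. Of the 10 members, 0 were called higher and 0 lower at an adjusted p below 0.1 (limma on log2(normalised read count + 1), Benjamini-Hochberg over 19170 genes), against 0.313% of all genes called higher and 0.245% called lower. At an unadjusted p below 0.05 there was 1 member, Psmb9, beside 11.5% of all genes. The log2 difference, DT minus PBS, was positive for 2 members and negative for 8, with a median of -0.10 where the median of all genes with values was -0.01. These signs depended on PBS 3 and PBS 5: without the pair 8 members were positive and 2 negative, with a median of 0.09, and without PBS 3 alone 7 were positive and 3 negative. In none of the 10 were the values of the 2 groups apart without overlap, which was the case for 1.65% of all genes.

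**Figure D1:**
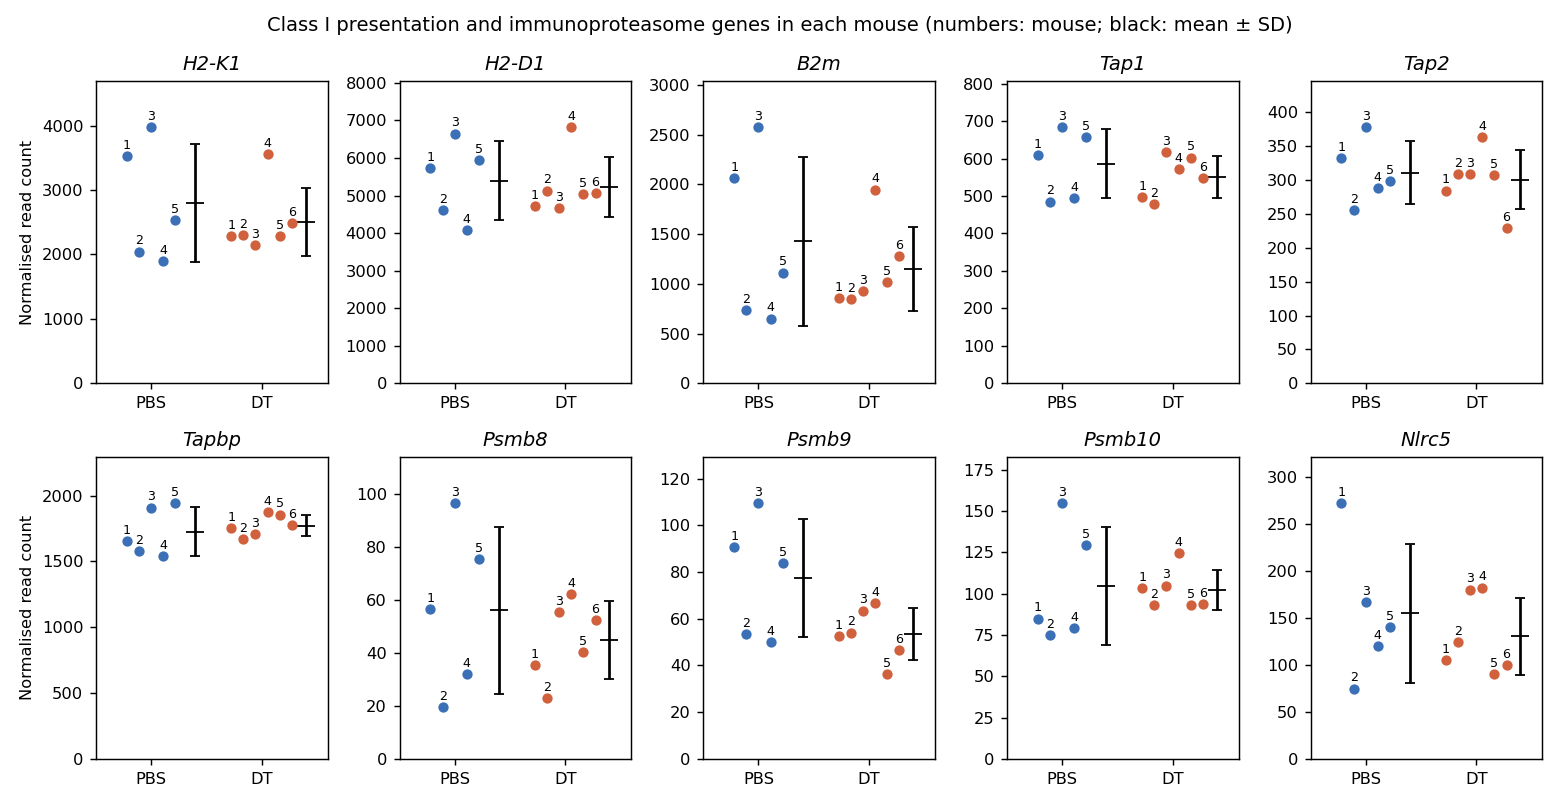
Normalised read count (vertical axes, from 0) of each of the 10 members in the 5 PBS mice (blue) and the 6 DT mice (orange), with the number of the mouse above each point and the mean ± SD in black. PBS 3 was the highest of all mice for 7 of the 10 genes, and the groups overlapped for every gene.

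H2-K1, a classical heavy chain, was measured at 3526 in PBS 1, 2042 in PBS 2, 3976 in PBS 3, 1901 in PBS 4 and 2534 in PBS 5. In the 6 DT mice its lowest value was 2144, its median 2289 and its highest 3559, the last in DT 4. The high mice were thus PBS 3, DT 4 and PBS 1, and the DT values lay inside the range of the PBS values. The log2 difference was -0.12 with a 95% interval from -0.49 to 0.25 (adjusted p = 0.85, limma).

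H2-D1, the other classical heavy chain, had 5729, 4604, 6649, 4076 and 5936 in PBS 1 to PBS 5. Its DT values ran from 4672 to 6822 with a median of 5042, and DT 4 was again the highest DT mouse. DT and PBS mice overlapped over most of the range, and the log2 difference was -0.03 with an interval from -0.28 to 0.22 (adjusted p = 0.95, limma). Some caution applies to both heavy chains, since 9.63% of the 50-base stretches of H2-K1 transcripts and 12.8% of those of H2-D1 also occur in transcripts of other genes, mostly of each other and of the H2-Q genes. How the authors' counting placed reads from such stretches is not given in the sources used here.

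B2m, the light chain shared by all class I molecules, varied more than any other abundant member. It reached 2065 in PBS 1, 738 in PBS 2, 2577 in PBS 3, 651 in PBS 4 and 1113 in PBS 5. Its lowest value among DT mice was 848, its median 973 and its highest 1947. The same 3 mice as for H2-K1 were high, namely PBS 3, PBS 1 and DT 4, while PBS 4 and PBS 2 were the lowest, so that both ends of the range were PBS mice. The highest mouse had 3.96 times the level of the lowest. The log2 difference was -0.17, and its interval from -0.84 to 0.49 was too wide to tell a moderate change in either direction from no change (adjusted p = 0.88, limma). B2m shares no 50-base stretch with another gene.

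Tap1 and Tap2 form the transporter that brings peptides into the endoplasmic reticulum. Tap1 had 610, 485, 684, 494 and 657 in PBS 1 to PBS 5, and between 477 and 616 with a median of 559 in DT mice. The DT values filled the lower and middle part of the PBS range, and the log2 difference was -0.08 with an interval from -0.29 to 0.13 (adjusted p = 0.82, limma). Tap2 had 333, 256, 378, 289 and 298 in the PBS mice and between 229 and 363 with a median of 308 in the DT mice. The lowest Tap2 value belonged to DT 6 and the highest to PBS 3, and the log2 difference was -0.05 with an interval from -0.29 to 0.19 (adjusted p = 0.91, limma). Of the 50-base stretches of Tap2, 11.6% also occur in other annotated genes, most of them in Gm15821.

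Tapbp encodes tapasin, which holds the empty heavy chain beside the transporter and edits its peptide. It was the steadiest member, with 1657, 1579, 1909, 1542 and 1945 in PBS 1 to PBS 5 and between 1667 and 1874 in DT mice. The highest mouse had only 1.26 times the level of the lowest. The log2 difference was 0.04 with an interval from -0.09 to 0.18 (adjusted p = 0.85, limma). Without PBS 3 and PBS 5 it was 0.15 and Tapbp was the single member called higher (adjusted p = 0.096, limma), in a comparison in which 4.81% of all genes were called higher and 5.45% lower. A share of 23.2% of its 50-base stretches occurs in other annotated genes, most of it in the overlapping gene model Gm19412.

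**Figure D2:**
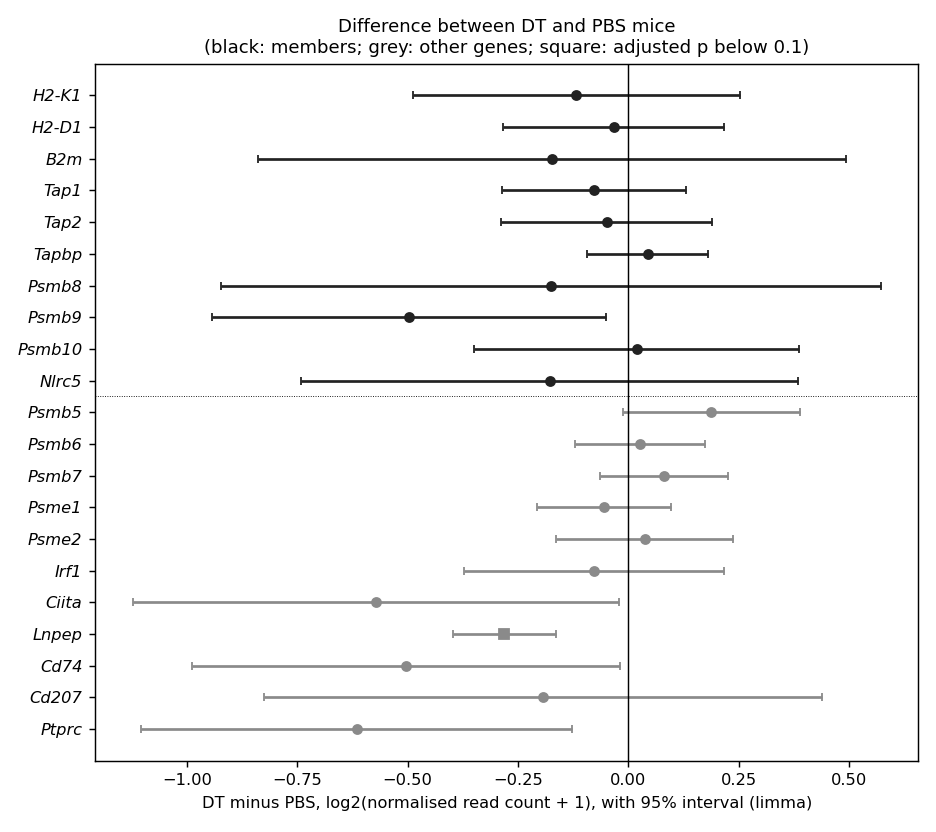
Difference between DT and PBS mice on the log2(normalised read count + 1) scale (horizontal axis) with its 95% interval from limma, for the 10 members (black) and 11 other named genes (grey). The intervals of 9 members include 0, that of Psmb9 ends at -0.05, and Lnpep (square) is the gene past the adjusted threshold.

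Psmb8, Psmb9 and Psmb10 are the catalytic subunits that interferon brings into the immunoproteasome, where they replace Psmb5, Psmb6 and Psmb7 in turn. Psmb8 was the least abundant member per kilobase, with 56.6, 19.4, 96.6, 31.9 and 75.5 in PBS 1 to PBS 5. In DT mice it ran from 22.8 to 62.3, inside the PBS range, and the log2 difference was -0.18 with an interval from -0.92 to 0.57 (adjusted p = 0.89, limma). With 20 to 96 reads in a mouse, its counting error alone gives a coefficient of variation of about 14.2%, against 46.4% observed over the 11 mice. Of the 50-base stretches of Psmb8, 11.9% also occur in other annotated genes, most of them in Gm20496.

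Psmb9 had the largest difference of the members with all mice included, and Psmb8 (0.37) and Psmb10 (0.35) had larger ones without PBS 3 and PBS 5. Its values were 90.5 in PBS 1, 53.4 in PBS 2, 109.6 in PBS 3, 50.1 in PBS 4 and 83.9 in PBS 5. They were 52.7, 54.1, 63.5, 66.6, 36.3 and 46.4 in DT 1 to DT 6. PBS 1, PBS 3 and PBS 5 lay above all DT mice, whereas PBS 2 and PBS 4 lay among them. The log2 difference was -0.50 with an interval from -0.94 to -0.05, which gave an unadjusted p of 0.032 and an adjusted p of 0.37 in limma. Without PBS 3 and PBS 5 the log2 difference was -0.25 and the unadjusted p 0.26.

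Psmb10 had 84.9, 74.8, 154.9, 79.2 and 129.1 in the PBS mice, and between 92.9 and 124.5 in the DT mice. PBS 3 and PBS 5 were the highest of all mice and PBS 1, PBS 2 and PBS 4 the lowest, so that the DT mice fell in between. The log2 difference was 0.02 with an interval from -0.35 to 0.39 (adjusted p = 0.98, limma), and it was 0.35 without PBS 3 and PBS 5 (unadjusted p = 0.014, adjusted p = 0.12).

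Each immunoproteasome subunit was then set against the constitutive subunit whose place it takes. The constitutive subunits were far more abundant, and Psmb8 amounted to between 1.44% and 5.87% of the normalised read count of Psmb5 in the 11 mice. Psmb9 amounted to between 1.93% and 5.39% of Psmb6, and Psmb10 to between 4.46% and 8.27% of Psmb7. Per kilobase of exon the shares had medians of 0.900%, 1.72% and 11.6%.

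For Psmb9 to Psmb6 the share was 5.37%, 3.04%, 5.39%, 3.37% and 4.32% in PBS 1 to PBS 5. The DT mice had 2.99%, 3.00%, 3.62%, 3.48%, 1.93% and 2.69% in DT 1 to DT 6, so that 3 PBS mice exceeded every DT mouse. The log2 ratio was lower in DT mice by -0.53 (two-sided exact permutation test over 462 splits, p = 0.043, adjusted over the 3 ratios p = 0.13). Its adjusted p was 0.039 when medians were compared in place of means and 0.36 without PBS 3 and PBS 5, in the same exact test.

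For Psmb8 to Psmb5 the share had a median, taken on the log2 scale, of 4.27% in PBS mice and 2.85% in DT mice. The groups overlapped from 1.49% to 3.73%, with both PBS 2 and DT 2 at the bottom and PBS 1, PBS 3 and PBS 5 above every DT mouse, and the log2 ratio differed by -0.36 (exact permutation p = 0.36, adjusted p = 0.54). Psmb10 to Psmb7 had a median, taken in the same way, of 5.76% in either group. Its log2 ratio differed by -0.06 (exact permutation p = 0.72, adjusted p = 0.72). Leaving out PBS 3 and PBS 5 turned the difference to 0.17 for Psmb10 to Psmb7 and to 0.0071 for Psmb8 to Psmb5.

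**Figure D3:**
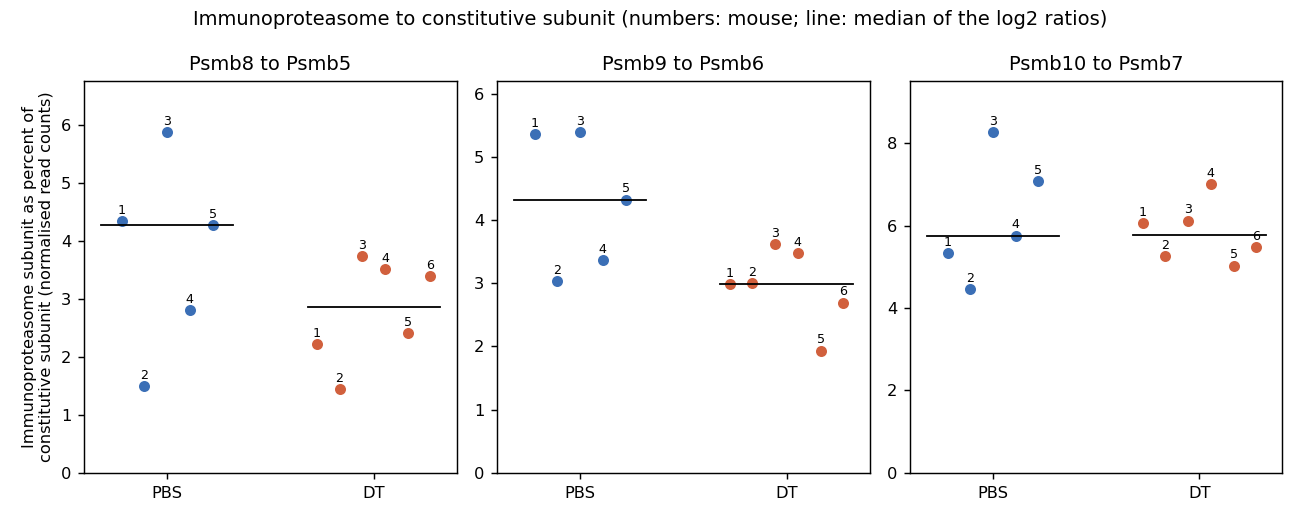
Immunoproteasome subunit as percent of the constitutive subunit it replaces (vertical axes, from 0, ratio of normalised read counts) in each PBS (blue) and DT (orange) mouse, with the median of the log2 ratios of each group as a line. For Psmb8 to Psmb5 and for Psmb9 to Psmb6 the mice PBS 1, PBS 3 and PBS 5 lie above all DT mice while PBS 2 and PBS 4 lie among them, and for Psmb10 to Psmb7 only PBS 3 and PBS 5 do.

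Nlrc5, the transactivator of class I genes, was measured at 272.7, 74.8, 167.0, 120.2 and 140.6 in PBS 1 to PBS 5. In DT mice it ran from 90.3 to 182.5 with a median of 115. PBS 1 was by far the highest mouse and PBS 2 the lowest, and the log2 difference was -0.18 with an interval from -0.74 to 0.38 (adjusted p = 0.85, limma). Of 23 other genes of class I regulation with values, 0 were called in either direction and 1 had an unadjusted p below 0.05, with a median log2 difference of -0.05. That gene was Rfx5, a subunit of the RFX complex on MHC promoters, with a log2 difference of -0.23 (adjusted p = 0.35, limma), and it was called lower without PBS 3 and PBS 5 (-0.32, adjusted p = 0.060). The fit without this pair called 5.45% of all genes lower. Irf1, an interferon-gamma-induced activator of class I promoters, differed by -0.08 (adjusted p = 0.88, limma). Nfkb1, which encodes the NF-kappa-B subunit p50, was the gene with the smallest p among those with positive values, and its log2 difference was 0.12 (adjusted p = 0.57).

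The fixed lists other than the members cover the wider class I pathway, the regulators above, interferon-stimulated genes and class II genes. Together they gave 1 call among 99 genes with values, against 0.558% of all genes called in either direction. That call was Lnpep, an aminopeptidase that trims peptides in endosomes for cross-presentation. It had 1461, 1388, 1313, 1473 and 1398 in PBS 1 to PBS 5 and 1194, 1261, 1126, 1048, 1206 and 1115 in DT 1 to DT 6. All DT mice lay below all PBS mice, and Lnpep fell by 0.28 on the log2 scale (adjusted p = 0.049, limma). The call was lost with a block on the replicate numbers of the titles or of the library names (adjusted p = 0.28 and 0.33), with no intensity trend (adjusted p = 0.20), and without PBS 1, PBS 2, DT 3, DT 4, DT 5 or DT 6 in turn (adjusted p between 0.10 and 0.14), while the value stayed between -0.32 and -0.25 in every alternative.

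Among the 8 genes of loading and trimming in the endoplasmic reticulum, 5 had positive values. The chaperone Hspa5 had the smallest p of these, with a log2 difference of 0.30 (unadjusted p = 0.045, adjusted p = 0.42, limma), and Erap1, the aminopeptidase that trims class I peptides there, differed by -0.03 (adjusted p = 0.85). Among 12 class I-like and nonclassical genes with values 0 were called, with 8 negative values and a median of -0.09. H2-T23, which encodes the Qa-1 molecule, differed by 0.04 (adjusted p = 0.86). H2-Q7, a gene of the Qa-2 family, differed by -0.73 with an interval from -1.63 to 0.17 (adjusted p = 0.54). H2-Q1 and H2-T3 were listed without a value.

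The constitutive proteasome leaned to higher values in DT mice, without a call. All 3 constitutive catalytic subunits had positive values, with 0.19 for Psmb5 (adjusted p = 0.46, limma), 0.03 for Psmb6 and 0.08 for Psmb7. Of 16 other genes for core subunits and assembly, 15 had positive values with a median of 0.10 where all genes with values had -0.01, 0 were called, and 2 had an unadjusted p below 0.05. Psmb1 had the smallest of these p-values (log2 difference 0.16, adjusted p = 0.33), and Psmb2 was the gene with a negative value, at -0.00024. When PBS 3 and PBS 5 were left out, Psmb5 differed by 0.37 (adjusted p = 0.0071), Psmb7 by 0.18 (adjusted p = 0.085) and Psmb1 by 0.24 (adjusted p = 0.033). PBS 3 and PBS 5 had the highest PBS values of each of these genes, so leaving them out raised each difference. That fit called 4.81% of all genes higher and 5.45% lower. The activator subunits of the interferon-inducible PA28 cap, Psme1 and Psme2, differed by -0.05 and 0.04 (adjusted p = 0.82 and 0.92), and Psme3, of the nuclear cap, by 0.02 (adjusted p = 0.89).

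Class II presentation, listed for comparison, had 8 negative values in 8 genes with a median log2 difference of -0.42, and 0 calls. Cd74, the invariant chain, had the smallest p in the list with a log2 difference of -0.50 (adjusted p = 0.41, limma), and Ciita, the class II counterpart of Nlrc5, differed by -0.57 (adjusted p = 0.41). Cd74 was 2251 in PBS 3 and 1674 in PBS 5, above the other mice, which lay between 564 and 1169, and its difference was -0.10 without this pair. Of 25 interferon-stimulated genes 0 were called, with 12 positive and 13 negative values and a median of -0.03. Ddx58, which encodes the RNA sensor RIG-I, differed by -0.39 (unadjusted p = 0.0037, adjusted p = 0.21; -0.47 and called without PBS 4, adjusted p = 0.0996), and Gbp3, an interferon-induced GTPase, by 0.43 (adjusted p = 0.73).

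The members differed in how much they varied between mice. For B2m the coefficient of variation over the 11 mice was 49.7%, where counting error alone gives about 2.81%, and for H2-K1 it was 26.7% against 1.95%. Tapbp had 7.68% against 2.38%, and Psmb9 34.1% against 12.5%. The SD of log2 values was larger among PBS mice than among DT mice for 9 of the 10 members, with Tap2 as the exception, and the median over members of the ratio of the 2 SDs was 1.66. Among the 13477 genes whose mean normalised read count reached 10, the PBS mice had the larger SD in 69.3%, and the median ratio was 1.34.

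The members varied together from mouse to mouse. All 45 pairs of members had a positive Pearson's r over the 11 mice, with a median of 0.67 and a range from 0.17 to 0.98, where 49.9% of all pairs among 13477 genes (mean normalised read count 10 or more) had a positive r. At an adjusted permutation p below 0.05 over the 45 pairs, 25 were called by Pearson's r and 16 by Spearman's rho. The lowest r among the 25 was 0.66, a value reached by 3.83% of all pairs of genes.

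H2-K1 and B2m, the chains of the same molecule, had the closest relation, with r = 0.98 (permutation p = 1e-05, the smallest that 100000 permutations can give, adjusted p = 0.00045) and rho = 0.92 (permutation p = 0.00023, adjusted p = 0.0039). Without the 2 mice farthest from the median of H2-K1, r was 0.97. H2-K1 and H2-D1 followed with r = 0.91 (permutation p = 6e-05, adjusted p = 0.00135) and rho = 0.97 (permutation p = 1e-05, adjusted p = 0.00045), and r was 0.81 without the 2 farthest mice. H2-D1 and B2m had r = 0.89 (permutation p = 0.00031, adjusted p = 0.0035) and rho = 0.83 (permutation p = 0.0030, adjusted p = 0.021), and r was 0.77 without the 2 farthest mice.

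Tap1 and Psmb8, neighbours in the MHC region, had r = 0.90 (permutation p = 0.00013, adjusted p = 0.00195) and rho = 0.91 (permutation p = 0.00026, adjusted p = 0.0039), with r = 0.84 without the 2 farthest mice. Tapbp and Psmb10 had r = 0.86 (permutation p = 0.00063, adjusted p = 0.0057) and rho = 0.89 (permutation p = 0.00056, adjusted p = 0.0063), with r = 0.82 without the 2 farthest. By r, Nlrc5 was most closely related to Psmb9, with r = 0.74 (permutation p = 0.0091, adjusted p = 0.038) and rho = 0.80 (permutation p = 0.0047, adjusted p = 0.021), with r = 0.66 without the 2 farthest. Its relation to Tapbp was the weakest of all pairs, with r = 0.17 (permutation p = 0.63, adjusted p = 0.63) and rho = 0.19 (permutation p = 0.58, adjusted p = 0.58). It was related to H2-K1 with r = 0.68 (permutation p = 0.023, adjusted p = 0.046) and rho = 0.58 (permutation p = 0.066, adjusted p = 0.087), so that rho did not pass.

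**Figure D4:**
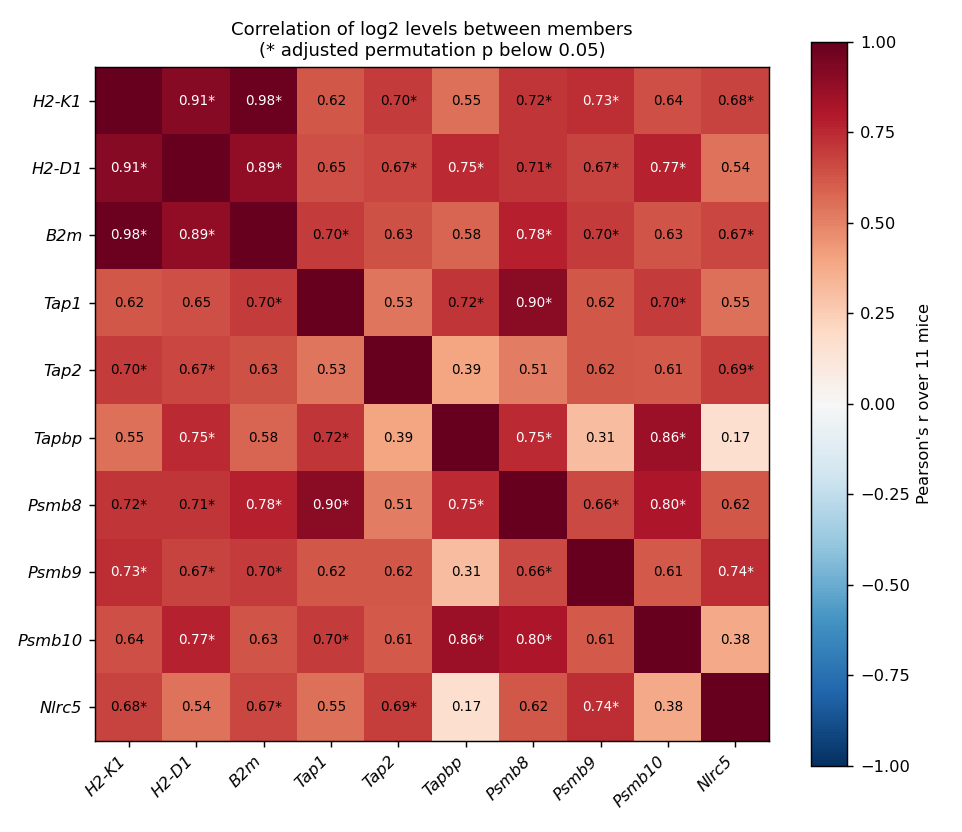
Pearson's r between the log2 levels of each pair of members over the 11 mice (colour scale from -1 to 1), with a star where the adjusted permutation p is below 0.05. Stars stand on 25 of the 45 pairs, and the deepest red off the diagonal is H2-K1 with B2m at 0.98.

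When each value was taken as the deviation from its group mean, which removes the difference between DT and PBS, 30 of the 45 pairs were called, with a median r of 0.69. The permutations took no account of the removed group means or of the larger spread among PBS mice, so these p-values may be too small. For this setting and those that follow, the share of all pairs of genes was not computed. The number of called pairs depended on a few mice. The mice PBS 1, PBS 3 and DT 4, with B2m between 1947 and 2577, stand apart from the other 8, with B2m between 651 and 1279. Over those other 8 mice, a split chosen after the values were seen, 43 of the 45 pairs kept a positive r with a median of 0.57, and 0 pairs were called by r and 2 by rho. H2-K1 with B2m had r = 0.90 and H2-K1 with H2-D1 r = 0.91 among these 8 mice (exact permutation p = 0.0030 and 0.0013, adjusted p = 0.063 and 0.060), and Tap1 with Psmb8 had r = 0.88 (exact permutation p = 0.0046, adjusted p = 0.063). In the 9 mice other than PBS 3 and PBS 5, 44 pairs were positive and 4 were called. There Tap1 with Psmb8 had r = 0.83 and Tapbp with Psmb10 r = 0.80, no longer called (exact permutation p = 0.0085 and 0.0091, adjusted p = 0.068 for both). H2-K1 with Nlrc5 had r = 0.70 and was not called either (exact permutation p = 0.039, adjusted p = 0.18). The negative pair was Tapbp with Psmb9, at r = -0.20 (exact permutation p = 0.61, adjusted p = 0.64). Leaving out a single mouse gave 5 called pairs without PBS 2 or without PBS 3, 6 without PBS 4, 9 without DT 2, 12 without DT 1 and 14 without PBS 5. It gave 20 without DT 4, 23 without PBS 1 or without DT 5, and 27 without DT 3 or without DT 6.

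The level of leukocyte RNA was set beside each member, since leukocytes in the epithelium also express class I genes and, in bulk RNA, more cells and more RNA per cell cannot be told apart. The leukocyte level of a mouse was the mean log2 value of Ptprc, Laptm5, Coro1a, Cd53 and Cd52. It was highest in PBS 3 and PBS 5, at 6.55 and 6.19, and lay between 4.72 and 5.80 in the other 9 mice. Ptprc, the pan-leukocyte CD45 gene, was 92.5 in PBS 3, 75.5 in PBS 5 and between 23.2 and 65.5 elsewhere, and its log2 difference of -0.62 between DT and PBS was not called (adjusted p = 0.31, limma). All 5 genes had negative differences with a median of -0.62, and 0 of 5 were called.

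All 10 members had a positive r with the leukocyte level over the 11 mice, from 0.22 for Nlrc5 to 0.75 for Psmb9, beside 49.4% of all genes. None was called at an adjusted permutation p below 0.05 over the 10 relations, 4 had an unadjusted permutation p below 0.05 by r, and 2 by rho. Psmb9 had r = 0.75 (permutation p = 0.0079, adjusted p = 0.079) and rho = 0.71 (permutation p = 0.018, adjusted p = 0.18), and r was 0.42 without the 2 mice farthest from the median. H2-D1 had r = 0.70 (permutation p = 0.016, adjusted p = 0.080) and rho = 0.63 (permutation p = 0.043, adjusted p = 0.18), with r = 0.49 without the 2 farthest. B2m had r = 0.56 (permutation p = 0.071, adjusted p = 0.14) and rho = 0.42 (permutation p = 0.20, adjusted p = 0.37), with r = 0.35 without the 2 farthest. PBS 3, PBS 1 and DT 4, the highest for B2m, had leukocyte levels of 6.55, 5.46 and 5.80. PBS 4 and PBS 2, the lowest for B2m, had 5.27 and 5.62. As deviations from the group means 3 members were called, H2-D1, Tapbp and Psmb10. The limit given above for p-values of deviations holds here too, and the share of all genes was not computed for this setting. Without PBS 3 and PBS 5 the 10 values of r ranged from -0.38 to 0.49 with 6 positive, and 0 were called.

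Markers of T cells and of NK and innate lymphoid cells were lower still. Of 10 T cell markers 7 had values, and they summed to 91.5 in PBS 3, 61.9 in PBS 5, 55.4 in PBS 1 and 47.2 in DT 4, and to between 23.7 and 40.1 in the other 7 mice. Trac, Cd8b1 and Trdc were listed without a value. The 5 measured NK and innate lymphoid markers summed to between 28.3 and 45.3 in PBS mice and between 16.1 and 35.4 in DT mice, and Gzma and Gzmb were listed without a value. Interferon-stimulated genes, which also include genes of immune cells, summed to between 1020 in PBS 2 and 2824 in PBS 5. Class II genes summed to 4957 in PBS 3 and 3916 in PBS 5, and to between 1346 and 2827 in the others. The part of these cells in the levels of the class I genes was not tested.

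The genes whose pattern over the 11 mice was most like the mean of the 10 members were found by Pearson's r among the same 13477 genes, as a description. They were Jpt2 with r = 0.97, H2-Q4 with 0.91, Spag7 with 0.89, Irf9 with 0.89 and Tle6 with 0.87. H2-Q4 is itself a class I gene that shares transcript sequence with H2-K1, with 221 in PBS 1, 251 in PBS 3 and 175 in DT 4, while the other 8 mice had 101 to 147. Irf9 encodes the DNA-binding subunit of the transcription factor complex of the type I interferon response.

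B2m was also set against each gene of the regulator list and of the interferon-stimulated list, 48 relations in all, a comparison added after the values were seen. It was called with 1 gene, Irf9, by both r and rho. The relation had r = 0.91 (permutation p = 5e-05, adjusted p = 0.0024) and rho = 0.93 (permutation p = 8e-05, adjusted p = 0.0038), with r = 0.77 without the 2 mice farthest from the median of B2m. Irf9 had 781, 592, 845, 633 and 675 in PBS 1 to PBS 5 and 649, 591, 662, 717, 697 and 674 in DT 1 to DT 6, so that its range was 1.43 times from the lowest to the highest mouse. An r with B2m as high as that of Irf9 was reached by 4 of the 13477 genes (0.0297%), a count that includes B2m itself and the member H2-K1. Among the 8 mice without PBS 1, PBS 3 and DT 4, the r of Irf9 was 0.68 (exact permutation p = 0.065, adjusted p = 0.53), and without PBS 3 alone the gene was no longer called by r, with r = 0.86.

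Other interferon genes were less closely related to B2m. Ifit3 had r = 0.72 (permutation p = 0.014, adjusted p = 0.33) and rho = 0.79 (permutation p = 0.0057, adjusted p = 0.14). Cxcl9, an interferon-gamma-induced chemokine, had r = 0.68 (permutation p = 0.023, adjusted p = 0.35) and rho = 0.72 (permutation p = 0.016, adjusted p = 0.17). Irf1 had r = 0.53 (permutation p = 0.096, adjusted p = 0.46) and rho = 0.61 (permutation p = 0.052, adjusted p = 0.22). Over the 48 genes the median r was 0.31 and 41 were positive.

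**Figure D5:**
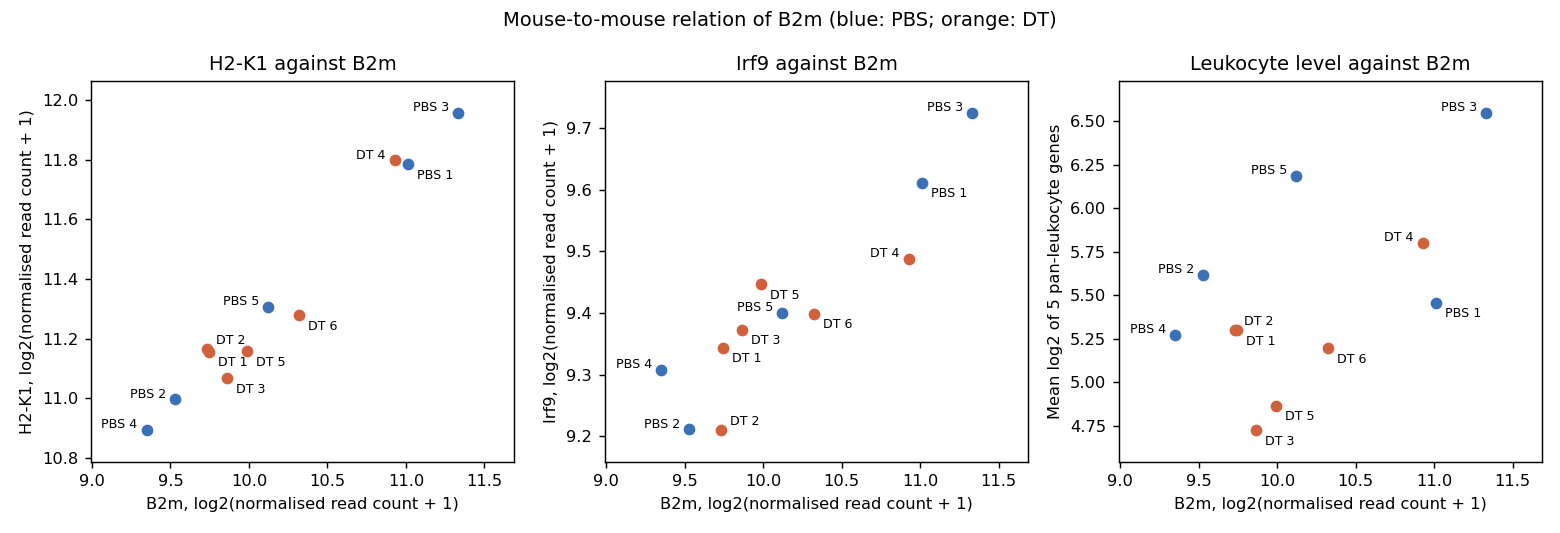
Each point is a mouse (blue PBS, orange DT), with the log2 level of B2m on the horizontal axes and on the vertical axes the log2 level of H2-K1, the log2 level of Irf9, and the mean log2 level of 5 pan-leukocyte genes. PBS 1, PBS 3 and DT 4 lie at the upper right for H2-K1 and Irf9, whereas PBS 5 is high for the leukocyte level and not for B2m. PBS 3 is high for both the leukocyte level and B2m.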

How the data were processed

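The authors trimmed the reads, aligned them with TopHat2 (2.1.1), counted reads per gene with HTSeq (2.01) and scaled each mouse by its DESeq2 (1.36.0) size factor; the versions are those of the submitters' processing notes, and the study's methods give others. The deposited values are therefore a normalised score per gene and mouse, not counts. The notes name GRCm39 and the study's methods GRCm38, so no gene coordinates are printed with the values. Of 55414 listed genes, 36244 have no value. Values of 1 mouse were whole multiples of 1 read (100% within 0.05 of a whole read under 300 normalised read counts), which gave the depth. The labels name a stranded poly(A) kit and the methods a 3′ tag workflow, so levels per kilobase, which assume reads along whole transcripts, may be off. Exon lengths were from GENCODE M21.

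Differences were tested with limma (3.58.1, R 4.3.3; intensity trend) on log2(value + 1), all 11 mice, no covariate. Ratios were tested with two-sided exact permutations and correlations with 100000 permutations (all permutations below 10 mice). The limma fit was checked on simulated data. Alternatives changed the pseudocount, low-value filter, scaling, trend, weights, block and mice; the split without PBS 1, PBS 3 and DT 4, the B2m relations, the block on library names and voom were chosen after seeing the data. Nothing in the labels links mice by litter or batch. Named genes are the members, their constitutive counterparts, PA28 subunits, Irf1, Ciita, Cd207, Ptprc, called genes or else the smallest p in each direction of each pathway list, and the 5 genes closest to the members' mean; Erap1, Ifit3 and Cxcl9 were named after their values were seen, and 1 further gene of the rule is not reported here. The members and lists were chosen with earlier results of these data known.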

Additional observations from a re-analysis of the deposited data

Results flagged for a closer look

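In 3 of 72 groups of values the highest mouse lay apart from the rest of its group by Dixon's ratio, where chance gives about 1 in 20. All 3 were DT 4 among the DT mice. H2-K1 was at 3559 in DT 4, with the next DT mouse at 2483. H2-D1 was at 6822, with the next at 5132. Psmb10 was at 124.5, with the next at 104.8.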

How the results depend on the processing

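The count of 0 called members held in every alternative but the fit without PBS 3 and PBS 5, which called 1 higher (Tapbp). Tests with edgeR and DESeq2 on recovered reads had been planned and were not run, because the values were treated as normalised; voom on the recovered reads, added after seeing the data, called 89 genes and 0 members. Over all genes 107 were called (60 higher, 47 lower). There were 4 (2 and 2) with no intensity trend, 189 (110 and 79) with array weights, 35 (24 and 11) with the replicate block and 1967 (922 and 1045) without PBS 3 and PBS 5, and leaving out 1 mouse gave 27 to 259 (19 to 155 higher, 8 to 104 lower). Mice with the same number were not treated as pairs in the main fit, since nothing in the labels links them. The correlations of their deviations were 0.088, 0.17, -0.23, -0.21 and 0.32, and 1 of 5 PBS mice correlated best with its own number. Without a reference for such values, they cannot exclude a pairing. DT 6 has no partner in that block. The library name of PBS 5 carries the number 6, and its correlation with DT 6 was -0.048. A block on these numbers, added after seeing the data, called 0 genes in either direction in limma (1404 at an unadjusted p below 0.05), and turned Irf1 to 0.011.

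With PBS 3 and PBS 5 left out, the log2 difference turned to 0.046 for H2-K1, 0.13 for H2-D1, 0.13 for B2m, 0.061 for Tap1, 0.034 for Tap2, 0.37 for Psmb8, 0.067 for Psme1, 0.096 for Irf1, 0.14 for Psmb2 and 0.33 for Cd207. Tap2 turned to 0.026 with the replicate block, and Psmb2 to 0.0043 with TMM scaling, 0.036 with array weights and 0.0073 with the replicate block. Leaving out 1 mouse turned some differences, with ranges of -0.24 to 0.025 for H2-K1, -0.13 to 0.047 for H2-D1, -0.40 to 0.093 for B2m, -0.12 to 0.026 for Tap2, -0.49 to 0.071 for Psmb8, -0.085 to 0.17 for Psmb10, -0.41 to 0.056 for Nlrc5, -0.037 to 0.076 for Psmb6, -0.057 to 0.10 for Psme2, -0.16 to 0.011 for Irf1, -0.0023 to 0.093 for H2-T23, -0.057 to 0.069 for Psmb2, -0.0052 to 0.043 for Psme3 and -0.44 to 0.055 for Cd207.

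The ratio of Psmb8 to Psmb5 turned to 0.0071 and that of Psmb10 to Psmb7 to 0.17 without PBS 3 and PBS 5. With medians the ratio of Psmb10 to Psmb7 turned to 0.00067 and that of Psmb9 to Psmb6, at -0.53, passed the threshold. Leaving out 1 mouse gave -0.17 to 0.053 for Psmb10 to Psmb7. Of 25 called pairs of members there were 4 without PBS 3 and PBS 5, 0 without PBS 1, PBS 3 and DT 4, 16 by Spearman's rho and 5 to 27 without 1 mouse. Members called with the leukocyte level numbered 3 as deviations from group means and 0 to 3 without 1 mouse (3 without PBS 2, 1 without PBS 1 and 1 without DT 3). Without PBS 3 and PBS 5 their r turned to -0.38 for Tap1, -0.12 for Tapbp, -0.15 for Psmb8 and -0.0050 for Psmb10, and without PBS 1, PBS 3 and DT 4 to -0.16 for Tap2 and -0.11 for Nlrc5. The call of B2m with Irf9 was lost (0 genes) in both of these, and 0 to 1 genes were called without 1 mouse. Without PBS 3 and PBS 5 its r was 0.86 (exact permutation p = 0.0026, adjusted p = 0.12). The cause of these changes was not tested. Depth limits Psmb8, Psmb9 and Psmb10, with 20 to 154 reads in a mouse.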
